A study of Microhyla fissipes with 12 samples.

Results

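A group of 15 unigenes in dorsal muscle of the frog Microhyla fissipes had at least 10 FPKM in every library of stages 36 and 40 and was far lower in every library of stages 43 and 45, where 9 of them were listed at 0 throughout and 2 still exceeded 10 FPKM in a library. A unigene is a transcript of a gene catalogue assembled from reads, and FPKM, its level, counts mapped fragments per unit of transcript length and of sequencing yield. Members were chosen by measured values: the lowest FPKM over the 6 libraries of stages 36 and 40, called early here, had to be at least 10 and at least 4 times the highest FPKM over the 6 libraries of stages 43 and 45, called late. Of 468578 unigenes in the table, 15 met this rule. The contrast of early with late levels is therefore given as a description, without a test.

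The samples were dorsal muscle at developmental stages 36, 40, 43 and 45 (S36, S40, S43 and S45), with 3 libraries per stage and 12 in all. The labels give no genotype or treatment, and all tadpoles received spirulina powder. The number of animals behind a library is not stated. A p-value here thus weighs a difference between stages only against the spread of libraries within a stage, technical or other. Gene names are not attached to the IDs in the table, so neither the members nor markers of muscle and other tissues could be named, and the tissue label was not checked.

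Frog metamorphosis is driven by thyroid hormone, which acts through nuclear receptors that switch target genes on and off. In dorsal muscle of anurans studied in this respect, larval fibres are lost or converted while adult fibres form, and larval isoforms of contractile proteins give way to adult ones. In RNA from a whole tissue, fewer cells of a type and less RNA per cell cannot be told apart.

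Some libraries stand closer to each other than their labels imply. The log2 ratio of S45 replicates 2 and 3 had a robust SD of 0.0287 for unigenes at a mean FPKM of 1000 or more. A robust SD is scaled from the median absolute deviation, so outlying unigenes have little weight in it. Sampling noise alone would give 0.0247. That value was scaled from the spread of the same pair at 10 to 30 FPKM, taking all of that spread as noise. The observed value was close to that but above it. By the plan, a pair above noise was to be counted as 2 samples. The pair was still counted as 1 sample, which departs from that plan, and S45 has n = 2 in tests. S36 replicate 3 and S40 replicate 1, from different stages, were the next closest pair. Their robust SD was 0.0553, against 0.0253 by the same scaling, and they were kept as separate samples. The robust SDs of the other pairs were 0.156 or more. By this measure S43 replicate 3 was closer to the S45 libraries (0.262, 0.321 and 0.332) than to S43 replicates 1 and 2 (0.377 and 0.470). It listed 135286 unigenes at an FPKM of 1 or more, against 68062 and 78159 in S43 replicates 1 and 2. Total FPKM ran from 1219979 to 1688307 per library, and the number of reads is not part of the table, so absolute depth is unknown. Between 68062 and 140066 unigenes reached an FPKM of 1 in a library, from S43 replicate 1 with the fewest to S45 replicate 1, so the late libraries did not as a group list fewer unigenes.

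**Figure D1:**
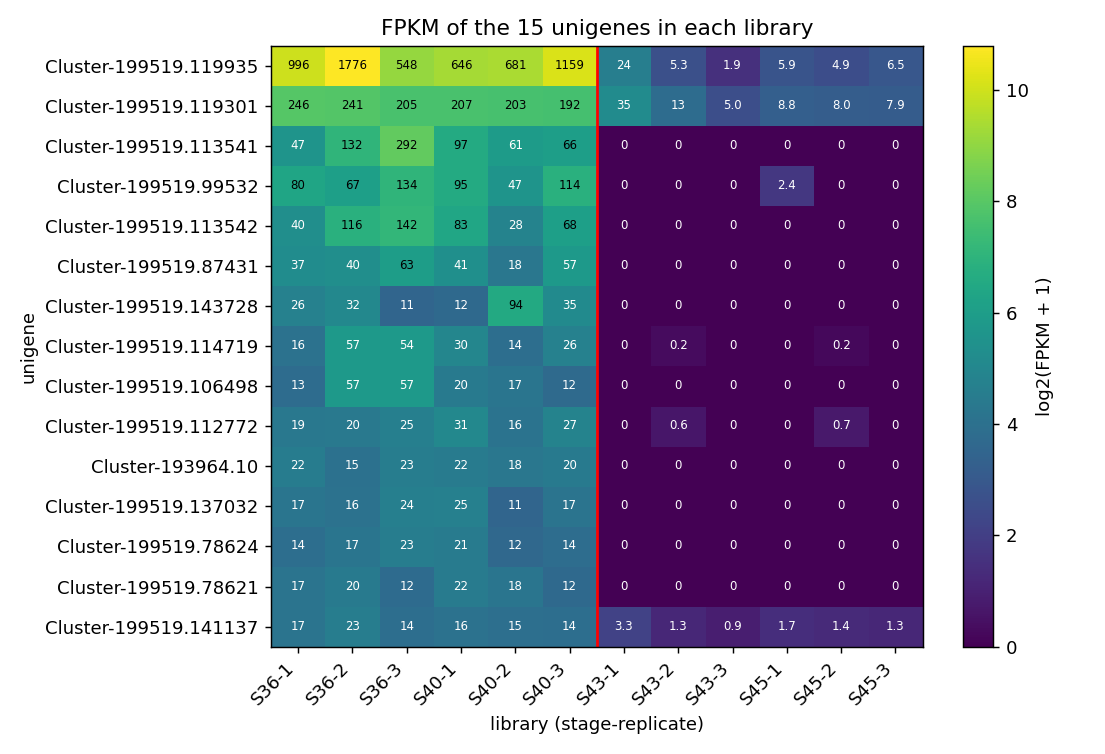
FPKM of each of the 15 unigenes (rows, ordered by mean early level) in each of the 12 libraries (columns), with colour on the log2(FPKM + 1) scale, the rounded value in each cell and a red line between early and late libraries. 9 unigenes are listed at 0 in all 6 late libraries, 3 are above 0 in some of them and 3 in all of them.

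The most abundant of the 15 was Cluster-199519.119935, with 995.88, 1775.54 and 548.22 FPKM in the S36 libraries, 645.88, 681.42 and 1159.0 in those of S40, 23.75, 5.27 and 1.86 in those of S43 and 5.94, 4.86 and 6.54 in those of S45. It stood between rank 75 and rank 203 of all unigenes in the early libraries and between rank 5461 and rank 86729 in the late ones. The early and late values are 2 separate groups, and the lowest early value is 23.1 times the highest late one. Its mean was 968 FPKM over the 6 early libraries, 10.3 ± 11.8 at S43 (SD, n = 3) and 5.82 ± 0.17 at S45 (n = 2), a ratio of means of 94.0 for early over S43 and of 166 for early over S45. With S45 replicates 2 and 3 counted apart, the S45 SD was 0.85 (n = 3). The S43 mean was carried by S43 replicate 1: without it the mean was 3.56 and the ratio 271, above that for S45.

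Cluster-199519.119301 was the second by early level and the steadiest. It had 245.89, 240.62 and 205.24 FPKM in the S36 libraries, 206.99, 203.22 and 192.36 in those of S40, 35.46, 13.0 and 5.02 in those of S43 and 8.77, 7.97 and 7.93 in those of S45. The highest early value was 1.28 times the lowest, the smallest spread among the 15, while the S43 libraries spanned 7.06-fold. The early mean of 216 FPKM was 12.1 times the S43 mean of 17.8 ± 15.8 (SD, n = 3) and 25.8 times the S45 mean of 8.36 ± 0.58 (n = 2). Without S43 replicate 1 the former ratio was 23.9.

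Cluster-199519.141137 had the same shape at a much lower level and was the member closest to the ratio threshold. Its values were 17.02, 22.58 and 13.72 FPKM at S36, 15.66, 14.51 and 13.88 at S40, 3.32, 1.33 and 0.86 at S43 and 1.66, 1.42 and 1.32 at S45. These 3 unigenes were the only members above 0 in every late library. In each of them S43 replicate 1 was the highest late library and S43 replicate 3 the lowest, with the S45 libraries between. The place of S43 replicate 2 relative to the S45 libraries differed among them. This match was seen after the values were known, and its share over all unigenes is not given. S43 replicate 1 also listed the fewest unigenes at an FPKM of 1 or more of any library, and the part of that in this match was not tested.

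**Figure D2:**
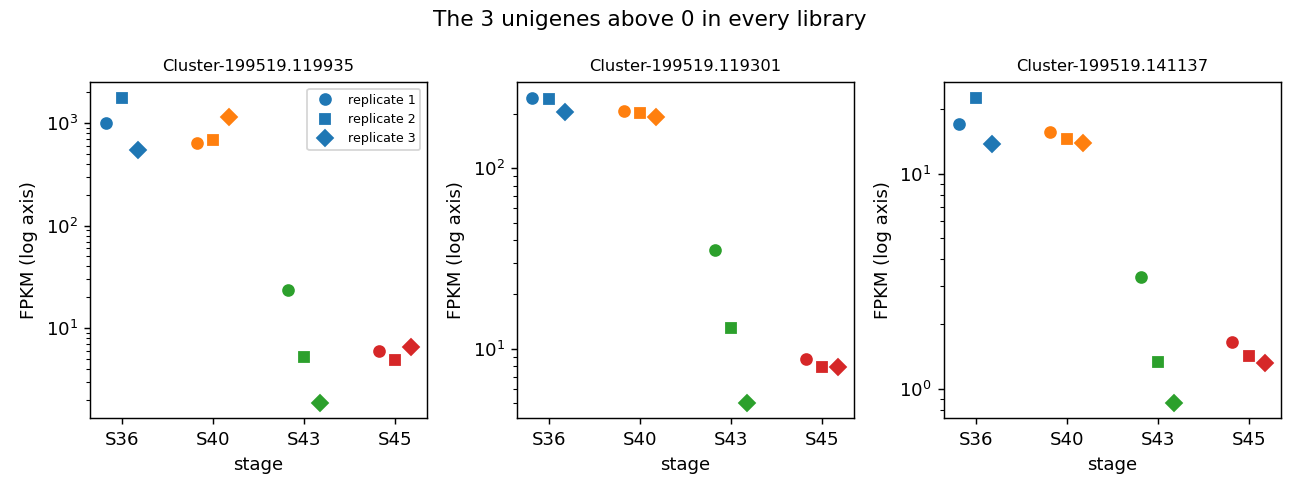
FPKM on log axes of the 3 unigenes above 0 in every library, by stage, with 1 point per library and a marker shape per replicate number. In all 3 panels the S43 points are spread widest, from replicate 1 at the top (23.75, 35.46 and 3.32 FPKM) to replicate 3 at the bottom (1.86, 5.02 and 0.86).

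A set of 9 members was listed at 0 in all 6 late libraries. Cluster-199519.113541 led them, with 46.91, 131.8 and 292.14 FPKM in the S36 libraries and 96.67, 60.62 and 66.1 in those of S40. Cluster-199519.113542, the next number in the same cluster, had 39.5, 115.8 and 142.44 at S36 and 82.66, 27.61 and 67.73 at S40. Both were highest in S36 replicate 3, followed by S36 replicate 2, and the S36 and S40 values of each overlap.

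Cluster-199519.87431 had 37.38, 39.84 and 63.12 FPKM at S36 and 40.71, 18.35 and 56.78 at S40 before a listed 0 in every S43 and S45 library. Cluster-199519.143728 had 26.03, 32.18 and 10.55 at S36 and 11.94, 93.69 and 35.13 at S40. Its early libraries differed by 8.88 times, the widest range of the 15, and its highest library, S40 replicate 2, was the lowest for 7 of the other members. Cluster-199519.106498 had 13.17, 57.07 and 57.0 at S36 and 20.41, 17.1 and 12.46 at S40, so only S36 replicates 2 and 3 stood clearly above the rest.

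The other 4 of the 9 had means of 16.7 to 20.2 FPKM over the early libraries. Cluster-193964.10 had 22.47, 15.31 and 22.57 at S36 and 21.79, 18.5 and 20.32 at S40. Cluster-199519.137032 ranged from 10.61 to 24.9 over the early libraries, Cluster-199519.78624 from 11.71 to 23.18 and Cluster-199519.78621 from 11.87 to 21.72. A listed 0 in a table without counts can be a failed estimate, so no fold is given for these unigenes.

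A listed 0 was rare among unigenes of this early level. Of the 5839 unigenes with a lowest early FPKM of at least 10, between 25 and 48 were at 0 in any single late library (0.428% to 0.822%), and 9 were at 0 in all 6, which the rule makes members. In the opposite direction, none of the 6072 unigenes with a lowest late FPKM of at least 10 was listed at 0 in all 6 early libraries. Among the 15 members, chosen for low late values, 10 to 12 were at 0 in each late library.

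A further 3 members were above 0 in some late libraries only. Cluster-199519.99532 had 79.98, 67.07 and 134.17 FPKM at S36, 95.34, 46.9 and 113.95 at S40, and among the late libraries 2.41 in S45 replicate 1 and a listed 0 in the other 5. Cluster-199519.114719 had 15.67, 56.91 and 54.14 at S36, 30.07, 13.9 and 25.79 at S40, and late values of 0.25 in S43 replicate 2, 0.19 in S45 replicate 2 and otherwise a listed 0. Cluster-199519.112772 had 19.16, 19.88 and 24.61 at S36, 31.47, 16.47 and 27.22 at S40, and late values of 0.58 and 0.65 in the same 2 libraries. The last 2 thus appeared in the same late libraries, each at under 1 FPKM.

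The 15 unigenes together held 0.126%, 0.215% and 0.127% of total FPKM in the S36 libraries and 0.104%, 0.0965% and 0.147% in those of S40. The share was 0.00469%, 0.0015% and 0.000458% in the S43 libraries and 0.00118%, 0.00106% and 0.00111% in those of S45. Cluster-199519.119935 alone made up 33.7% to 67.6% of this sum in the early libraries and 24.0% to 41.4% in the late ones. The members are thus a small part of the RNA at every stage, and the sum is led by 1 unigene.

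**Figure D3:**
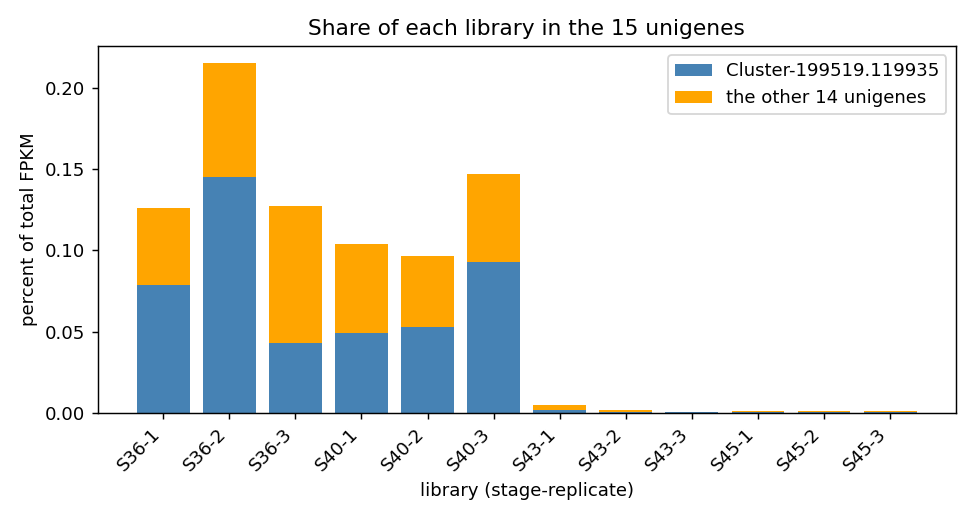
Percent of total FPKM in the 15 unigenes in each of the 12 libraries, split into Cluster-199519.119935 (blue) and the other 14 (orange). The early libraries stand between 0.0965% and 0.215%, and the late libraries at 0.00469% or less.

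The rule sets the same floor for S36 and S40 and so leaves out unigenes that were low at either stage, but it does not compare the 2 stages. By limma with Benjamini-Hochberg adjustment over the 123813 unigenes tested, of which 0.00162% were called in either direction, none of the 15 was called between S36 and S40 (a call needs an adjusted p under 0.05 and at least 1 in size on the log2 scale). All 15 entered the test, and none had an unadjusted p under 0.05, against 3.14% of all unigenes tested. The fit took the spread of a unigene from all stages, so late values capped by the rule entered its SEs and p-values. In a fit of the 2 stages alone, 0 members had an unadjusted p under 0.05, against 4.42% of all unigenes tested. In the fit of all stages the count was also 0 without S36 replicate 2 or S36 replicate 3, but 4 without S36 replicate 1. The 4 members (Cluster-199519.106498, Cluster-199519.113541, Cluster-199519.114719 and Cluster-199519.113542) each had a lower mean at S40. Their unadjusted limma p was then under 0.05, against 2.26% of all unigenes tested, and none was called. The spread of these 4 drew on only 2 S36 libraries and on late values at or near 0. The count of 4 is therefore not to be read against that share. Cluster-199519.113541 and Cluster-199519.113542 bear consecutive numbers, so the 4 may not be separate cases. The S36 and S40 libraries of each member overlapped, while S40 lay wholly above S36 for 6.21% of all unigenes tested and wholly below for 2.07%. Differences were computed from log2(FPKM + 1), so those of low unigenes come out too small. By this measure 11 members had a lower mean at S40 and 4 a higher one, with a median log2 difference of -0.22 against 0.09 over all unigenes tested. Without S40 replicate 2 these medians were -0.05 and 0.

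The member with the smallest p in this comparison was Cluster-199519.106498, with 42.4 ± 25.3 FPKM at S36 and 16.7 ± 3.99 at S40 (SD, n = 3 each). Its log2 difference was -1.06 ± 0.53 (SE; limma adjusted p = 1, and 0.771 to 1 over the alternatives). Cluster-199519.114719 came next, with 42.2 ± 23.1 at S36 and 23.3 ± 8.38 at S40 (log2 -0.70 ± 0.52 SE; limma adjusted p = 1, and 0.771 to 1 over the alternatives). Without S36 replicate 1, the log2 differences of these 2 were -1.74 and -1.29 and still not called. In both, S36 replicate 1 lay far below S36 replicates 2 and 3. The members' share of total FPKM was 0.156% ± 0.0511 at S36 and 0.116% ± 0.0273 at S40 (SD, n = 3 each), a difference of -0.0407 percentage points (2-sided exact permutation p = 0.3, with 0.1 the smallest possible). It was -0.0112 without S36 replicate 2 and -0.0166 without Cluster-199519.119935.

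Levels also varied among the libraries of a stage. The highest early library was S36 replicate 3 for 6 members, S36 replicate 2 for 4, S40 replicate 1 for 3, and S36 replicate 1 and S40 replicate 2 for 1 each. The lowest was S40 replicate 2 for 7. Such counts are not given for the 5839 unigenes of like early level, so a trait of the members cannot be told from one of the libraries. The highest early value was more than 3 times the lowest in 7 members and less than 2 times in 6, with a median of 2.01 over the 5839 unigenes with a lowest early FPKM of at least 10.

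The close pair of libraries was not close for part of the 15. Over the 5839 unigenes the log2 ratio of S36 replicate 3 to S40 replicate 1 had a robust SD of 0.184, and 5.34% of them differed by more than 1.5 times. Among the members 6 of 15 did so, 5 of them higher in S36 replicate 3. Cluster-199519.113541 had 3.02 times the level in S36 replicate 3 (292.14 against 96.67 FPKM), and Cluster-199519.106498 had 2.79 times (57.0 against 20.41). Cluster-199519.119301 and Cluster-193964.10 were nearly equal in the pair, with ratios of 0.992 and 1.04. These comparisons were chosen after the values were seen and were not tested.

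Between the late stages none of the 15 was called either, by limma with adjustment over all unigenes tested, of which 0.928% were called in either direction. No member had an unadjusted p under 0.05, while 15.5% of all unigenes tested did. The rule caps every late value and the 9 members at 0 throughout cannot differ here, so these counts are not to be read against the shares over all unigenes. The S43 and S45 libraries of the other 6 overlapped, while S45 lay wholly above S43 for 16.9% of all unigenes tested and wholly below for 2.47%. The median log2 difference of the 15 was 0, since most were at 0 in both stages, against 0.38 over all unigenes tested. The smallest p belonged to Cluster-199519.99532 with its single late value in S45 replicate 1 (log2 difference 0.88 ± 0.59 SE, limma adjusted p = 0.52, and 0.35 to 1 over the alternatives).

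The next was Cluster-199519.119301, with 17.8 ± 15.8 FPKM at S43 (SD, n = 3) and 8.36 ± 0.58 at S45 (n = 2). Its log2 difference was -0.64 ± 0.58 (SE; limma adjusted p = 0.66, and 0.101 to 0.997 over the alternatives). Its direction rested on S43 replicate 1: without that library the log2 difference was 0.03, and without S43 replicate 3 it was -1.27. The members' share of total FPKM was 0.00222% ± 0.00221 at S43 (n = 3) and 0.00114% ± 6.67e-05 at S45 (n = 2; 2-sided exact permutation p = 0.8). With 3 against 2 samples, the smallest possible p of this test is larger than the 0.1 of 3 against 3. The difference in share turned from -0.00108 to 0.000156 percentage points without S43 replicate 1.

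**Figure D4:**
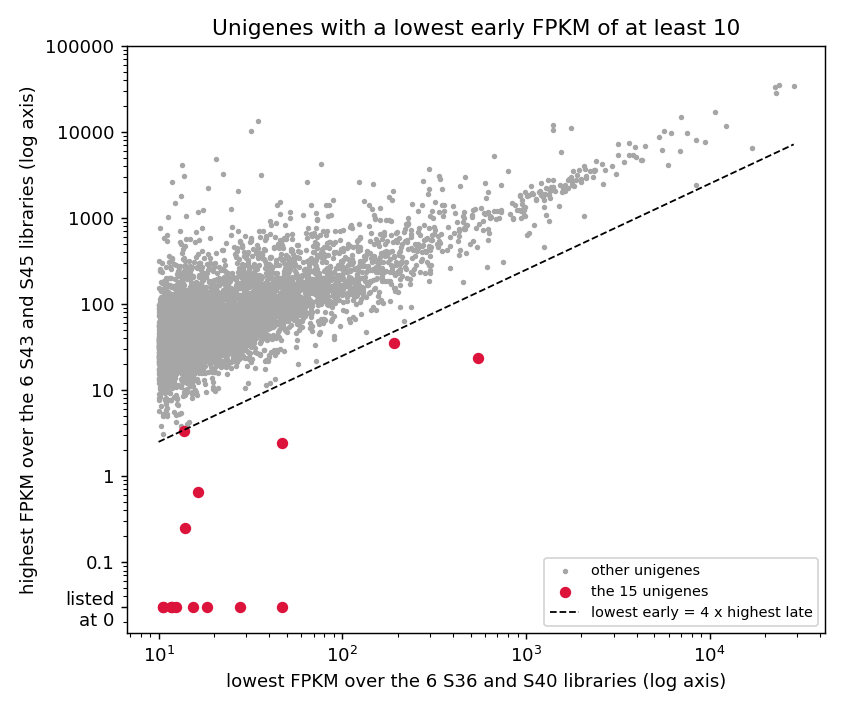
Highest late FPKM against lowest early FPKM, both on log axes, for the 5839 unigenes with a lowest early FPKM of at least 10; the 15 members are red, the dashed line marks the ratio of 4, and unigenes listed at 0 in all late libraries are drawn at the bottom. The members lie below the line, 9 of them in the bottom row, and the grey points nearest to the line have ratios of 3.52, 3.48 and 3.47.

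The 15 are 0.257% of these 5839 unigenes, whose lowest early value was at the median 0.379 times the highest late one. No overlap with early above late was found for 1.16% of all unigenes tested, and the rule fixes it for all 15. The mirrored rule, with late at least 10 and 4 times early, gave 18 of 6072 unigenes (0.296%). The members nearest to the ratio threshold were Cluster-199519.141137 (4.13) and Cluster-199519.119301 (5.42), and the next, Cluster-199519.99532 (19.5), was already far from it. Just outside were Cluster-199519.136691 (3.52), Cluster-199519.134855 (3.48) and Cluster-199519.119986 (3.47). The last of these had early values of 8407.95 to 26694.45 FPKM and late values of 1126.64 to 2422.77, so it was far more abundant than any member. Only unigenes that met the ratio of 4 were looked at around the early level of 10. Just under that level were Cluster-199519.78631 (lowest early FPKM 8.81), Cluster-199519.122257 (8.17) and Cluster-193964.12 (7.09). Just above it were Cluster-199519.143728 (10.55), Cluster-199519.137032 (10.61) and Cluster-199519.78624 (11.71).

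The unigene IDs hold a cluster name and a number, and the assembly put 224984 of its unigenes in 1 cluster, Cluster-199519. That cluster held 14 of the 15 members and 99.9% of the 5839 unigenes with a lowest early FPKM of at least 10. The exception, Cluster-193964.10, belongs to a cluster of 15 unigenes, and all 15 were listed at 0 in every late library. In the early libraries 11 of these 15 were above 0 throughout. The summed FPKM of all 15 was 51.3, 44.3 and 61.3 at S36 and 44.7, 45.0 and 40.0 at S40. Cluster-193964.12, for example, had 12.15, 16.88 and 19.38 at S36 and 9.15, 7.09 and 9.3 at S40. The late zeros were thus shared by all unigenes of the cluster, those under 1 FPKM included, while 4 of the 15 were also at 0 in some early library.

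**Figure D5:**
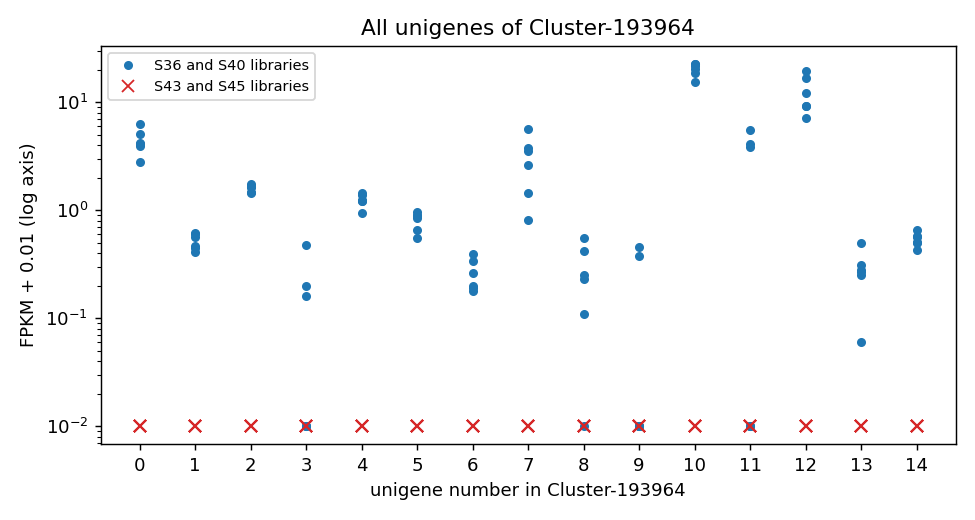
FPKM + 0.01 on a log axis for each of the 15 unigenes of Cluster-193964, with blue dots for the 6 early libraries and red crosses for the 6 late libraries. Every red cross sits at the bottom, at a listed 0, while Cluster-193964.10 and Cluster-193964.12 reach 22.57 and 19.38 FPKM in the early libraries.

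At a lower limit of 1 FPKM the same early-only pattern was found in 181 of the 33630 unigenes that reached it in all early libraries (0.538%). Outside the large cluster it was found in 65 of 281 unigenes (23.1%) and inside it in 116 of 33349 (0.348%). The late-only pattern was found in 8 of 268 unigenes outside it (2.99%) and in 44 of 28747 inside it (0.153%). The large cluster held 5835 of the 5839 unigenes with a lowest early FPKM of at least 10. Most of the 33349 inside it thus had a lowest early FPKM under 10, as did nearly all of the 281 outside it. The sets are not wholly alike in level. The 65 unigenes came from 60 clusters, so Cluster-193964 is not alone. Of the 10 clusters with at least 10 unigenes, Cluster-193964 was the only one listed at 0 throughout the late libraries with a unigene at 1 or more in all early libraries. Of the 413 clusters with at least 5 unigenes 2 were, the other being Cluster-202059 with 7 unigenes. These counts were made after the values were seen and carry no test.

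Some members stood beside unigenes of the same pattern in number. Of 56 unigenes, the members themselves left out, that lie within 5 numbers of a member in Cluster-199519 and reached 1 FPKM in all early libraries, 8 (14.3%) had a lowest early value at least 4 times the highest late one, against 0.696% of all unigenes that reached 1 FPKM. The 8 lay beside 3 members, and 7 of the 8 were at 0 in all late libraries. Of these members, Cluster-199519.78621 and Cluster-199519.78624 share neighbours, so the 8 are not separate cases and the shares were not compared by a test. Beside Cluster-199519.78621 and Cluster-199519.78624, Cluster-199519.78620 had 4.86 to 20.13 FPKM in the early libraries and a listed 0 in the late ones. Beside Cluster-199519.112772, Cluster-199519.112774 had 2.94 to 30.59 early and a listed 0 late.

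Cluster-199519.113541 and Cluster-199519.113542 are members and neighbours of each other. The other 9 members of the large cluster had no neighbour of the pattern within 5 numbers, and some sat next to a unigene that stayed high. Cluster-199519.119936, next in number to the most abundant member, had 1697.68 to 2883.37 FPKM in the early libraries and 1388.16 to 2239.84 in the late ones. Cluster-199519.99533, next to Cluster-199519.99532, had 37.37 to 74.39 early and 34.85 to 74.52 late. Cluster-199519.141136, next to Cluster-199519.141137, had 14.65 to 34.62 early and 0.3 to 4.31 late and missed the ratio. Whether neighbouring numbers are forms of 1 transcript is not given in the sources used here.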

How the data were processed

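Dorsal muscle RNA was taken with poly-T beads, fragmented, copied with random hexamers and sequenced as paired ends, per the labels' protocols. The authors deposited a single file of FPKM with 2 decimals for 12 libraries. How reads were assembled, aligned and counted is not given in the sources used here. Stage and replicate number came from the sample titles.

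The 123813 unigenes that reached 1 FPKM in 3 or more libraries were fitted with limma 3.58.1 in R 4.3.3 (data.table version 1.17.8) on log2(FPKM + 1), with no covariate beside stage, a mean-variance trend and 11 samples from all stages, S45 replicates 2 and 3 entering as their mean. A unigene was called at a Benjamini-Hochberg adjusted p under 0.05 if its log2 difference was 1 or more in size. The fit was tested on simulated data. Shares were compared by exact permutation. Other steps used Python 3.11.15 (pandas 2.3.3, numpy 2.4.6, scipy 1.17.1) and, for plots, matplotlib 3.10.9.

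The members, the rule for naming unigenes and the tests were chosen with earlier results of these data known. Named were the members highest in early level, in ratio, among those listed at 0 late and in late level, those at the thresholds and, with none called, the 2 with the smallest p in each comparison. Cluster-193964.10, Cluster-199519.137032, Cluster-199519.78624, Cluster-199519.78621 and all unigenes that are neighbours or cluster mates were named after their values were seen. Alternatives covered the pseudocount, filter, scaling, model, thresholds and each library left out. Late-stage zeros have no depth attached, so no floor is given.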

Additional observations from a re-analysis of the deposited data

How the results depend on the processing

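None of the 15 unigenes was called between S36 and S40 or between S43 and S45 under the 25 alternatives per comparison (0 to 0 with each library left out), which says little about stability: S36 against S40 gave 0 to 17 calls over all unigenes, and 9 members were at 0 in both late stages. The number with an unadjusted limma p under 0.05 between S36 and S40 was 0, but 4 without S36 replicate 1 and 1 without S40 replicate 1 and with median-ratio scaling; between S43 and S45 it was 0, but 1 without S43 replicate 3 and with a pseudocount of 0.1. Over all unigenes, calls between S43 and S45 ran from 0 in a fit of the 2 stages alone to 7888 without S43 replicate 3. They were 1149 in the main fit and 5834 with S45 replicates 2 and 3 as separate samples. The share called over all unigenes in that comparison thus depended strongly on the setting. Where a comparison was left with 1 S45 sample, that sample was assumed to vary like the others. The number of unigenes meeting the rule was 29 with a lowest early FPKM of 5, 5 with one of 20 and 52 with a ratio of 2. It was 15 to 27 with each library left out, highest without S45 replicate 1 (27) and S43 replicate 1 (23); all 15 remained each time, as fewer libraries can only add unigenes. Median-ratio scaling gave 13, of which 11 were among the 15, and quantile normalization 22, of which 14 were. The median log2 difference of the 15 from S36 to S40 was -0.29 to -0.05 with a library left out, and that from S43 to S45 went from 0 to -0.028 with quantile normalization. The difference in share between S43 and S45 ran from -0.00196 to 0.000156 percentage points with a library left out, and that between S36 and S40 from -0.0563 to -0.0112. The log2 difference of Cluster-199519.119301 from S43 to S45 ran from -1.27 without S43 replicate 3 to 0.027 without S43 replicate 1, where its direction turned. Without both S36 replicate 3 and S40 replicate 1, an alternative chosen after seeing the data, the rule gave 16 unigenes, the S36 to S40 median was -0.30 and the share difference -0.0492. In a fit of 12 separate libraries with the replicate number as a block, none of the 15 was called in either comparison. Over all unigenes that fit called 1 between S36 and S40 and 3500 between S43 and S45. Same-numbered libraries of the compared stages correlated from -0.127 to 0.119 in their deviations from the stage means. No pairing by number was seen, but with 3 libraries per stage, some of them close to each other, its absence is not shown. The number of reads is unknown, which limits what a listed 0 can show.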
